A study of Mus musculus with 9 samples.

Results

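The Cyp2c genes of the cytochrome P450 superfamily were described in mouse liver. The members were the 10 symbols Cyp2c29, Cyp2c37, Cyp2c38, Cyp2c39, Cyp2c40, Cyp2c44, Cyp2c50, Cyp2c54, Cyp2c55, and Cyp2c70, each taken by name from the expression tables and each above 0 in at least 1 liver. They are 10 of 23183 gene symbols and 10 of the 16 symbols that start with Cyp2c. RNA from the livers of 9 male C57BL/6J mice (an inbred strain that becomes obese on a fat-rich diet) was sequenced at postnatal day 100, with 1 library per mouse and 3 mice per group. The ND group ate a normal diet with 14% fat and the HFD group ate a high-fat diet with 60% fat, both for 10 weeks. The PRF 50 group ate the same high-fat diet for 10 weeks and was given PRF, a fraction of citrus leaves rich in polymethoxyflavones, by mouth at 50 mg/kg daily in the last 5 weeks. Other doses were not analysed here, and the animal numbers (ND 6, 7, and 9; HFD 1, 2, and 3; PRF 50 3, 9, and 10) name mice without pairing them.

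Values are log2(FPKM + 1), where FPKM is fragments per kilobase of transcript after scaling for library size, so that levels of different genes are compared per length. A difference on this scale understates the change of a gene with low expression. Read counts were not used here and the absolute depth is unknown. The relative depth, read from the most common ratio between low values, lay between 0.959 and 1.59 of that of HFD mouse 1. The liver label was checked against 12 hepatocyte markers. Of these, 11 were at or above 6.55 on the log2 scale in every liver, with Apoa2, an apolipoprotein, the most abundant at a mean of 18938 FPKM, and albumin (Alb) was listed at 0 in all 9 livers, so a value of 0 was not read as absence. Of 8 adipocyte and gut markers, 4 (Plin1, Lep, Fabp6, and Prss1) were listed at 0 in all 9 livers, and the list summed to between 0.228 and 1.30 FPKM per liver.

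Cyp2c enzymes are membrane-bound monooxygenases of the endoplasmic reticulum that take electrons from the reductase Por. In the liver they oxidize drugs, steroids, and retinoids, and several convert arachidonic and linoleic acid to epoxides or hydroxy acids, which the epoxide hydrolases Ephx1 and Ephx2 can open to diols. Their transcription is known to respond to the nuclear receptors CAR (Nr1i3) and PXR (Nr1i2), to Hnf4a, to growth hormone, and to inflammation.

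The family is a tandem array. In the GENCODE vM21 annotation of GRCm38, 15 Cyp2c genes fill 1180 kilobases of chromosome 19, from 39007019 to 40187333, and 9 of the 10 members lie there. Cyp2c44, which the annotation calls Cyp2c23, lies 3818 kilobases farther along. Each member has 9 exons in its longest annotated transcript. Along the array the tested genes run in the order Cyp2c55, Cyp2c29, Cyp2c38, Cyp2c39, Cyp2c67, Cyp2c68, Cyp2c40, Cyp2c37, Cyp2c54, Cyp2c50, and Cyp2c70.

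RefSeq promoters (GRCm38.p6) were matched for 8 of the 10 members, all but Cyp2c44 and Cyp2c54. Those of the 5 matched members whose groups did not overlap in at least 1 comparison are shown as the 250 bases before the RefSeq start, 5′ to 3′ on the gene's strand, with matches to the searched motifs in capitals. For Cyp2c39, which has more than 1 entry, the window next to its annotated gene is shown. The windows are chr19:39006769-39007018 on the plus strand for Cyp2c55, chr19:39286835-39287084 on the plus strand for Cyp2c29, chr19:39463076-39463325 on the minus strand for Cyp2c38, chr19:39510572-39510821 on the plus strand for Cyp2c39, and chr19:40187287-40187536 on the minus strand for Cyp2c70.
Cyp2c55: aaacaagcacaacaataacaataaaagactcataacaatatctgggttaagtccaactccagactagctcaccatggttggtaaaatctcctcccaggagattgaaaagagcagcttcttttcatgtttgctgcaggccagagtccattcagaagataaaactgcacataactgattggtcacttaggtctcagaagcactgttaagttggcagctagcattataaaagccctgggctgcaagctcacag
Cyp2c29: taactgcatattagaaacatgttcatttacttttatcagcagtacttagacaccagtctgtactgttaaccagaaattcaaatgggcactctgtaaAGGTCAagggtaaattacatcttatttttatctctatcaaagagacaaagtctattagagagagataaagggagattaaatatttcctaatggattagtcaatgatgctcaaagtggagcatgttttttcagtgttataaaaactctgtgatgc
Cyp2c38: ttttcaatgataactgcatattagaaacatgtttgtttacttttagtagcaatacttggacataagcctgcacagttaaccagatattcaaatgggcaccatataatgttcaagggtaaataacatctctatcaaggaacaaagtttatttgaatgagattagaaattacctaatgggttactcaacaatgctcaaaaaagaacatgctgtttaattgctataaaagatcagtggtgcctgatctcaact
Cyp2c39: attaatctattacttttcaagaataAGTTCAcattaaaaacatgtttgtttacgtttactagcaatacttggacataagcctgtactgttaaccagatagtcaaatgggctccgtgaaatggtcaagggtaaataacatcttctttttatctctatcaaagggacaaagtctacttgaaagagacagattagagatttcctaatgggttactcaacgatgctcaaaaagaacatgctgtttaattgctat
Cyp2c70: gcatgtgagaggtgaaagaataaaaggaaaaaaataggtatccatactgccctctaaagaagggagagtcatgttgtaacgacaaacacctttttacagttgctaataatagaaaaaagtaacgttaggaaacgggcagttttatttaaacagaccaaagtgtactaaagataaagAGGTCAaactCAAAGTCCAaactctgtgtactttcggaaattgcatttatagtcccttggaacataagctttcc

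The promoters of Cyp2c29, Cyp2c38, and Cyp2c39 are similar in sequence. After alignment, 74.8% of the 250 positions matched between Cyp2c29 and Cyp2c38, 74.4% between Cyp2c29 and Cyp2c39, and 79.2% between Cyp2c38 and Cyp2c39. This likeness is not particular to them, since the windows of Cyp2c37 and Cyp2c50, not shown, matched at 86%. The motifs searched on both strands were AGGTCA and AGTTCA (core hexamers of many nuclear receptors), TTCNNNGAA (STAT factors), TTGCGCAA (C/EBP factors), GTTAATNAT (HNF1), and CAAAGTCCA (HNF4). Cyp2c70 holds AGGTCA starting 74 bases and CAAAGTCCA starting 64 bases before its start. Cyp2c29 holds AGGTCA at 154 bases, the shown Cyp2c39 window holds AGTTCA at 225 bases, and the windows of Cyp2c38 and Cyp2c55 hold none of the 6 motifs. Among the windows not shown, Cyp2c40 holds CAAAGTCCA at 45 bases and AGTTCA at 26 bases, and Cyp2c50 holds AGTTCA at 35 bases. The other Cyp2c39 window holds AGGTCA at 25 bases, and Cyp2c37 holds none. Of 32851 promoters in the table, 14.02% hold AGGTCA, 11.8% AGTTCA, 7.02% TTCNNNGAA, 0.164% TTGCGCAA, 0.737% GTTAATNAT, and 0.384% CAAAGTCCA in the same window.

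Similar copies can share sequencing fragments. Of the 100-base windows of the longest coding transcript, none was found unchanged in a transcript of another gene for Cyp2c29, Cyp2c38, Cyp2c39, Cyp2c44, Cyp2c55, and Cyp2c70. The share was 4.70% for Cyp2c37, 7.59% for Cyp2c54, and 9.40% for Cyp2c50, each with the others of these 3 genes, and 44.1% for Cyp2c40, with Cyp2c69, Cyp2c68, and Cyp2c67. Values of Cyp2c40 are therefore uncertain. Cyp2c38 and Cyp2c39 transcripts were 93.8% identical over 1815 aligned bases, and Cyp2c29 was 88.1% identical to Cyp2c38.

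In ND livers Cyp2c29 was the most abundant member, at 967 ± 185 FPKM (SD, n = 3), followed by Cyp2c50 at 536 ± 64.7 FPKM. Cyp2c70 (255 ± 45.7), Cyp2c37 (251 ± 58.0), Cyp2c54 (204 ± 41.3), and Cyp2c44 (167 ± 66.9) came next, and each overlapped its neighbour in this order. Cyp2c38 (12.2 ± 1.70), Cyp2c55 (6.43 ± 1.65), Cyp2c40 (3.19 ± 1.59), and Cyp2c39 (1.12 ± 0.343) were far lower, and only Cyp2c40 and Cyp2c39 overlapped among these. In HFD livers Cyp2c29 (451 ± 138 FPKM) and Cyp2c50 (441 ± 75.8 FPKM) overlapped, and Cyp2c55 was the lowest by mean (0.827 ± 0.0412 FPKM), with values overlapping those of Cyp2c40. In PRF 50 livers Cyp2c29 (450 ± 33.7 FPKM) and Cyp2c50 (413 ± 77.4 FPKM) also overlapped, and every Cyp2c70 value (257 ± 36.7 FPKM) lay above every Cyp2c37 value (167 ± 44.9 FPKM).

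**Figure D1:**
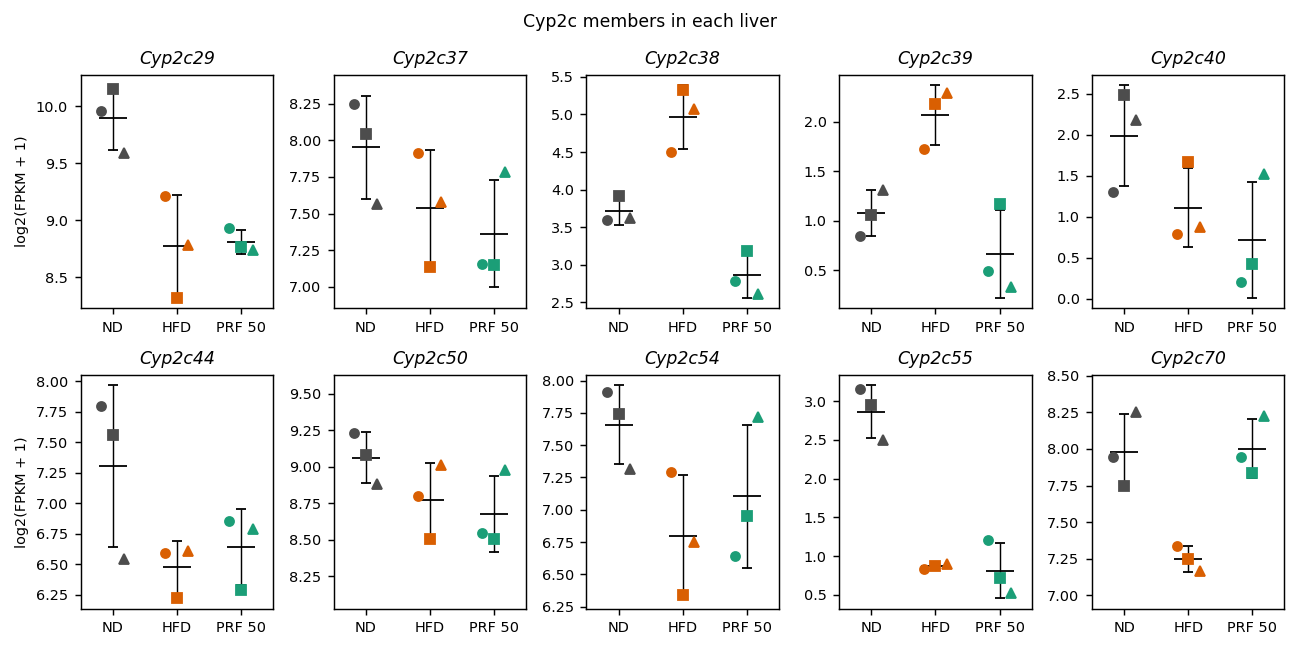
Each panel plots 1 member as log2(FPKM + 1) against the group, with its own vertical range; each point is 1 mouse (circle, square, and triangle in order of animal number), and the bars are the mean ± SD of 3 mice. Cyp2c38 and Cyp2c39 are highest in the HFD group, Cyp2c55 is low in both fat-fed groups, and Cyp2c70 is low in the HFD group alone.

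Between the diets, 1 low-level member of the family rose and 1 fell. Cyp2c38, an epoxygenase, rose and Cyp2c55, an inducible hydroxylase, fell in HFD against ND, where all 10 members were tested with limma among 9978 genes and a call needed an adjusted p under 0.05. So 1 of 10 members was higher, against 0.702% of all tested genes, and 1 of 10 was lower, against 0.631%. The 1 that was lower, Cyp2c55, passed the minimum mean of 1 FPKM over the 6 mice only through the ND livers. The groups did not overlap for 6 of 10 members (Cyp2c38 and Cyp2c39 above, Cyp2c29, Cyp2c54, Cyp2c55, and Cyp2c70 below), against 20.7% of all tested genes. The median log2 fold change was -0.78 over the 10 members and -0.01 over all tested genes. Leaving out 1 mouse moved the number of called members to 1 without ND mouse 6, ND mouse 7, HFD mouse 2, or HFD mouse 3, and to 4 without HFD mouse 1.

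With PRF on the high-fat diet, Cyp2c38 and Cyp2c39 fell and Cyp2c70, the muricholic acid enzyme, rose. These were 3 of the 9 members tested in PRF 50 against HFD, where Cyp2c55 was below the minimum mean of 1 FPKM. The 2 that fell compare with 2.16% of 10084 tested genes called lower, and the 1 that rose with 1.43% called higher. Cyp2c39 passed the minimum only through the HFD livers. The groups did not overlap for the same 3 of 9 members, against 26.2% of all tested genes. The median log2 fold change was -0.10 over the 9 members and -0.02 over all tested genes. Limma called 1 member without HFD mouse 2 or PRF 50 mouse 10, and 0 without HFD mouse 3 or PRF 50 mouse 3, where 3 members had an unadjusted p under 0.05.

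PRF 50 against ND shares its mice with both other comparisons, so the values are given side by side and were not tested against each other. Of 9 members tested (Cyp2c39 was below the minimum level), Cyp2c55 alone was called, and it was lower, against 0.298% of 10051 tested genes; 0 members were called higher, against 0.159%, and 5 members had an unadjusted p under 0.05 in either direction. Cyp2c55 passed the minimum level only through the ND livers. The groups did not overlap for 3 of 9 members (Cyp2c29, Cyp2c38, and Cyp2c55, all below), against 19.9% of all tested genes. The median log2 fold change was -0.66 over the 9 members and -0.03 over all tested genes. The count of called members was 0 without ND mouse 6, ND mouse 7, or PRF 50 mouse 9, where 4, 3, and 4 members had an unadjusted p under 0.05, and 2 without ND mouse 9.

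**Figure D2:**
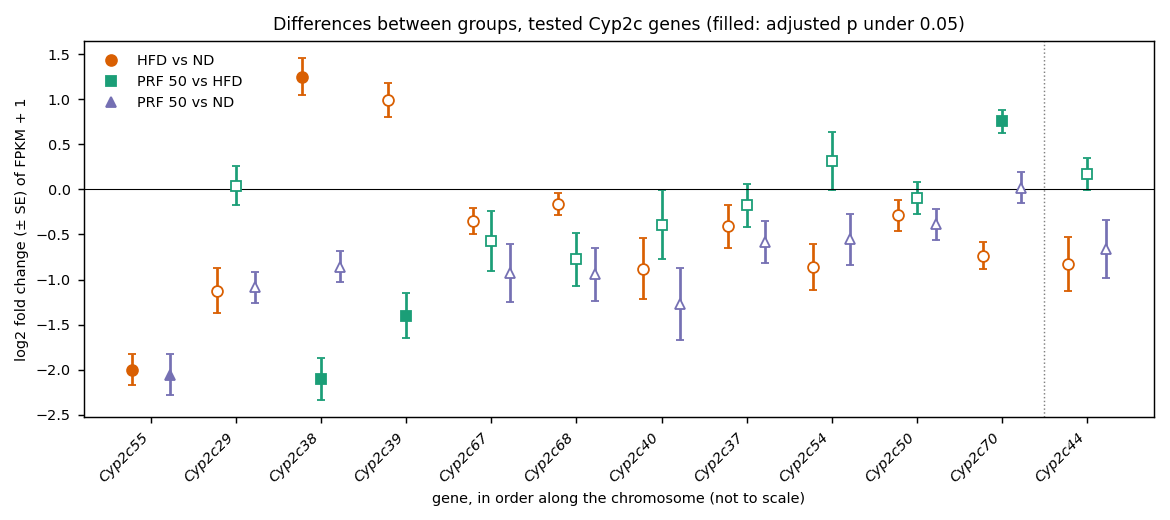
The vertical axis is the log2 fold change on the FPKM + 1 scale with its limma standard error (SE), and genes stand in their order along the chromosome, with Cyp2c44 apart at the right of the dotted line. Filled symbols passed an adjusted p under 0.05; the neighbours Cyp2c29 and Cyp2c38 lie on opposite sides of 0 in HFD against ND, at -1.13 and 1.25.

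Cyp2c55 oxidizes arachidonic and linoleic acid to hydroxy acids and is known as inducible through CAR and PXR. Its values were 3.16, 2.95, and 2.50 in ND mice 6, 7, and 9, then 0.84, 0.87, and 0.90 in HFD mice 1, 2, and 3, and 1.21, 0.71, and 0.52 in PRF 50 mice 3, 9, and 10. All 6 fat-fed livers lay below all 3 ND livers, and the HFD and PRF 50 groups overlapped. Its mean was 6.43 FPKM in ND, 0.827 FPKM in HFD, and 0.794 FPKM in PRF 50 livers. It therefore passed the minimum of 1 FPKM only through the ND livers. Its log2 value fell by 1.999 in HFD against ND (SE 0.17, limma adjusted p = 0.00275), and it was called in each of the 6 fits that left out 1 mouse. With no minimum level it was also called there (limma adjusted p = 0.0233). It fell by 2.05 in PRF 50 against ND (SE 0.23, limma adjusted p = 0.0152). That adjusted p was 0.0778 without ND mouse 6, 0.0747 without ND mouse 7, 0.0510 without PRF 50 mouse 9, and 0.0777 with no minimum level.

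Cyp2c29, the main Cyp2c enzyme of mouse liver and an arachidonic acid epoxygenase, was likewise highest in the ND group, at a far higher level. It was 9.96, 10.15, and 9.59 in ND mice 6, 7, and 9, 9.22, 8.32, and 8.79 in HFD mice 1, 2, and 3, and 8.94, 8.77, and 8.74 in PRF 50 mice 3, 9, and 10. Every fat-fed liver was below every ND liver, while HFD and PRF 50 overlapped. Its fold change in HFD against ND, -1.13 on the log2 scale (SE 0.25, limma adjusted p = 0.0914), did not pass the threshold, nor did that in PRF 50 against ND, -1.09 (SE 0.17, limma adjusted p = 0.0548). The first passed without HFD mouse 1 (adjusted p = 0.0462) and with all 9 mice in 1 fit (0.0472). The second passed without ND mouse 9 (0.0319), with a minimum of 10 FPKM (0.0330), and without the trend term (0.0446).

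Cyp2c38, an epoxygenase that is close in sequence to Cyp2c29, differed the other way between the diets. It was 3.60, 3.92, and 3.62 in ND mice 6, 7, and 9, 4.49, 5.33, and 5.07 in HFD mice 1, 2, and 3, and 2.78, 3.19, and 2.61 in PRF 50 mice 3, 9, and 10. The 3 groups did not overlap, with HFD the highest and PRF 50 the lowest. It rose by 1.25 in HFD against ND (SE 0.21, limma adjusted p = 0.0334). It fell by 2.11 in PRF 50 against HFD (SE 0.23, limma adjusted p = 0.0147), and in PRF 50 against ND the log2 fold change was -0.86 (adjusted p = 0.0913), which did not pass.

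The call of Cyp2c38 in HFD against ND depended on single mice. Its adjusted p from limma was 0.0951 without ND mouse 6, 0.0955 without ND mouse 7, 0.0823 without ND mouse 9, 0.0969 without HFD mouse 2, and 0.137 without HFD mouse 3, with log2 fold changes between 1.07 and 1.49 over the 6 such fits, and the adjusted p was 0.1004 with no minimum level. For PRF 50 against HFD it was 0.0529 without HFD mouse 3 and 0.0520 without PRF 50 mouse 3, with log2 fold changes between -2.34 and -1.93.

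Cyp2c39, which is known to hydroxylate retinoic acid, had values of 0.85, 1.06, and 1.31 in ND mice 6, 7, and 9, 1.72, 2.18, and 2.29 in HFD mice 1, 2, and 3, and 0.49, 1.17, and 0.33 in PRF 50 mice 3, 9, and 10. All HFD livers were above all others, and ND and PRF 50 overlapped. It fell by 1.40 in PRF 50 against HFD (SE 0.25, limma adjusted p = 0.0336). It passed the minimum level there only through the HFD livers, with a mean of 3.25 FPKM, against 0.638 FPKM in PRF 50. The adjusted p was 0.109 without HFD mouse 2, 0.115 without HFD mouse 3, 0.0926 without PRF 50 mouse 3, 0.0711 without PRF 50 mouse 10, and 0.0731 with no minimum level. The log2 fold change of 0.99 in HFD against ND did not pass (SE 0.19, adjusted p = 0.0521), but passed without HFD mouse 1 (0.0269) and after quantile normalization (0.0365).

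As a share of the Cyp2c29 level, Cyp2c38 stood at 1.28% ± 0.182 in ND, 7.77% ± 4.34 in HFD, and 1.42% ± 0.384 in PRF 50 livers (SD, n = 3). The single HFD livers were at 3.63%, 12.3%, and 7.40%, and each was above every other liver. This ratio was not tested.

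Cyp2c70 is the enzyme that makes muricholic acids, the characteristic bile acids of mice. Its values were 7.95, 7.75, and 8.25 in ND mice 6, 7, and 9, 7.34, 7.25, and 7.16 in HFD mice 1, 2, and 3, and 7.95, 7.84, and 8.23 in PRF 50 mice 3, 9, and 10. The HFD livers were below all others, and the PRF 50 values lay within the ND range. It rose by 0.75 in PRF 50 against HFD (SE 0.12, limma adjusted p = 0.0294). The adjusted p was 0.0976 without HFD mouse 2, 0.103 without HFD mouse 3, 0.0798 without PRF 50 mouse 3, 0.0501 without PRF 50 mouse 10, and 0.0580 with no minimum level. The log2 fold changes of -0.73 in HFD against ND (adjusted p = 0.0723) and 0.02 in PRF 50 against ND (adjusted p = 0.973) did not pass.

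The epoxygenases Cyp2c50, Cyp2c54, and Cyp2c44 and the hydroxylase Cyp2c37 had no limma call in any of the 3 comparisons, with adjusted p between 0.176 and 0.813. Cyp2c54 was 7.91, 7.74, and 7.32 in ND mice 6, 7, and 9, 7.29, 6.34, and 6.75 in HFD mice 1, 2, and 3, and 6.64, 6.95, and 7.72 in PRF 50 mice 3, 9, and 10. HFD lay just below ND, and PRF 50 overlapped both, with mouse 10 apart from mice 3 and 9. Cyp2c37 was 8.25, 8.04, and 7.57 in ND, 7.91, 7.13, and 7.58 in HFD, and 7.16, 7.15, and 7.78 in PRF 50 livers, in the same order of mice.

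Cyp2c50 ranged least of these, with 9.23, 9.08, and 8.88 in ND, 8.80, 8.51, and 9.01 in HFD, and 8.55, 8.51, and 8.97 in PRF 50 livers. Its groups overlapped in each comparison. Cyp2c44, also known from kidney and vessels, was 7.80, 7.56, and 6.55 in ND, 6.59, 6.22, and 6.61 in HFD, and 6.85, 6.28, and 6.79 in PRF 50 livers. ND mouse 9 lay with the fat-fed livers, and without it the log2 fold change in HFD against ND moved from -0.83 (adjusted p = 0.259 from limma) to -1.21 (adjusted p = 0.0300). Cyp2c40, a hydroxylase of arachidonic acid, was 1.30, 2.48, and 2.18 in ND, 0.78, 1.66, and 0.88 in HFD, and 0.21, 0.42, and 1.52 in PRF 50 livers, with overlap in each comparison and no call. The direction of Cyp2c29, Cyp2c37, and Cyp2c50 in PRF 50 against HFD turned when 1 mouse was left out, while no member changed direction under median-of-ratios scaling or quantile normalization in any comparison.

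Together the 10 members summed to 2626, 2580, and 2003 FPKM in ND mice 6, 7, and 9, 1716, 1171, and 1529 FPKM in HFD mice 1, 2, and 3, and 1470, 1377, and 1773 FPKM in PRF 50 mice 3, 9, and 10. Each ND liver was above each fat-fed liver. Cyp2c29 made up 40.1% ± 3.40 of the sum in ND, 30.2% ± 3.89 in HFD, and 29.6% ± 4.90 in PRF 50 livers, and Cyp2c70 made up 10.9% ± 3.71, 10.5% ± 2.05, and 16.7% ± 0.148, respectively. The sum without Cyp2c29 was 1436 ± 198 FPKM in ND, 1021 ± 147 FPKM in HFD, and 1090 ± 223 FPKM in PRF 50 livers. These sums were not tested.

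**Figure D3:**
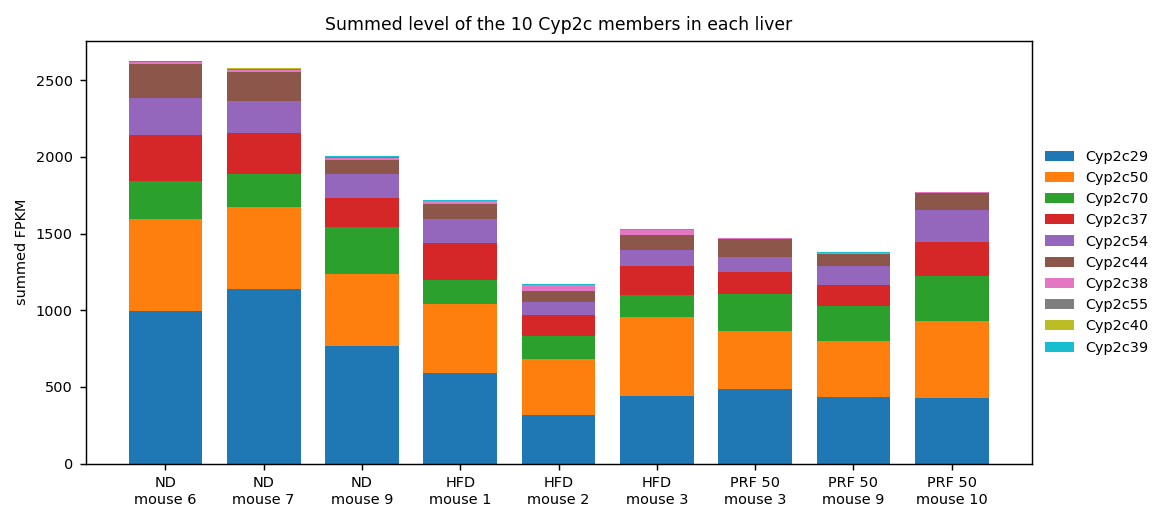
Bars show the FPKM of the 10 members stacked for each of the 9 livers, from 0. ND livers reach 2003 to 2626 FPKM and fat-fed livers 1171 to 1773 FPKM, with Cyp2c29 as the lowest and largest block except in HFD mice 2 and 3 and PRF 50 mouse 10, where Cyp2c50 is larger.

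The other Cyp2c symbols were Cyp2c67, Cyp2c68, Cyp2c69, Cyp2c65, Cyp2c66, and the pseudogene Cyp2c53-ps. Cyp2c67 was 7.47, 7.51, and 7.27 in ND, 7.22, 7.16, and 6.81 in HFD, and 6.28, 5.89, and 7.30 in PRF 50 mice 3, 9, and 10. Cyp2c68 was 6.63, 6.87, and 6.63 in ND, 6.65, 6.59, and 6.39 in HFD, and 5.59, 5.23, and 6.49 in PRF 50 mice 3, 9, and 10. In both genes PRF 50 mice 3 and 9 were the lowest of all livers and mouse 10 was within the range of the other groups, and limma called neither gene in any comparison. Cyp2c67 and Cyp2c68 each share transcript windows with Cyp2c40. How much they share with each other was not counted, so their values may not be separate readings. Without PRF 50 mouse 10 both were lower in PRF 50 against ND, with an adjusted p of 0.0232 for Cyp2c67 and 0.0230 for Cyp2c68, and Cyp2c68 was lower in PRF 50 against HFD, with an adjusted p of 0.0291. Cyp2c69 and Cyp2c53-ps were at or below 1.41 and 0.46, Cyp2c65 was above 0 only in ND mouse 9 (0.06), and Cyp2c66 was listed at 0 in all 9 livers.

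The same PRF 50 mice stood apart in genes of the acute-phase response, the change in secreted liver proteins during inflammation. Of 27 acute-phase and inflammation genes, 26 had their lowest PRF 50 value in mouse 10, against 33.9% of all genes with a PRF 50 mean of at least 1 FPKM. Serum amyloid Saa1, picked after its values were seen, was 12.46, 11.51, and 6.73 in PRF 50 mice 3, 9, and 10, against 6.49 to 7.03 in ND and 6.97 to 8.43 in HFD livers. The list, led by hemopexin (Hpx), summed to 50888, 33666, and 16871 FPKM in PRF 50 mice 3, 9, and 10, to 21564, 19540, and 17439 FPKM in ND mice 6, 7, and 9, and to 18352, 14925, and 13248 FPKM in HFD mice 1, 2, and 3. None of its genes was listed at 0 in all livers. Of the members, Cyp2c37, Cyp2c40, Cyp2c50, Cyp2c54, and Cyp2c70 had their highest PRF 50 value in mouse 10 (5 of 10), while Cyp2c29, Cyp2c38, Cyp2c39, and Cyp2c55 had their lowest there (4 of 10). Over all genes with a PRF 50 mean of at least 1 FPKM, the shares with their highest and lowest value in mouse 10 were 34.2% and 33.9%. The part of the acute-phase genes in the Cyp2c values was not tested.

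Limma called 0 of the 27 acute-phase genes in PRF 50 against HFD (7 at an unadjusted p under 0.05, median 0.88) and 0 in PRF 50 against ND (13 at an unadjusted p under 0.05, median 1.02). Without PRF 50 mouse 10 it called 11 higher against HFD and 9 higher against ND. Between the diets 3 rose, namely Lcn2, Steap4, and Serpina3n, with a median of 0.19. That count was 1 without ND mouse 7 or HFD mouse 2, and 0 without ND mouse 6 (9 at an unadjusted p under 0.05), ND mouse 9 (11), HFD mouse 1 (7), or HFD mouse 3 (8).

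With PRF 50 mice 3 and 9 left out together, which was chosen after seeing these values and leaves mouse 10 alone and assumed to vary like the other group, limma called 0 members in PRF 50 against HFD and 4 had an unadjusted p under 0.05. The log2 fold changes were then -2.36 for Cyp2c38 (adjusted p = 0.0850), -1.73 for Cyp2c39 (0.102), and 0.98 for Cyp2c70 (0.102).

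**Figure D4:**
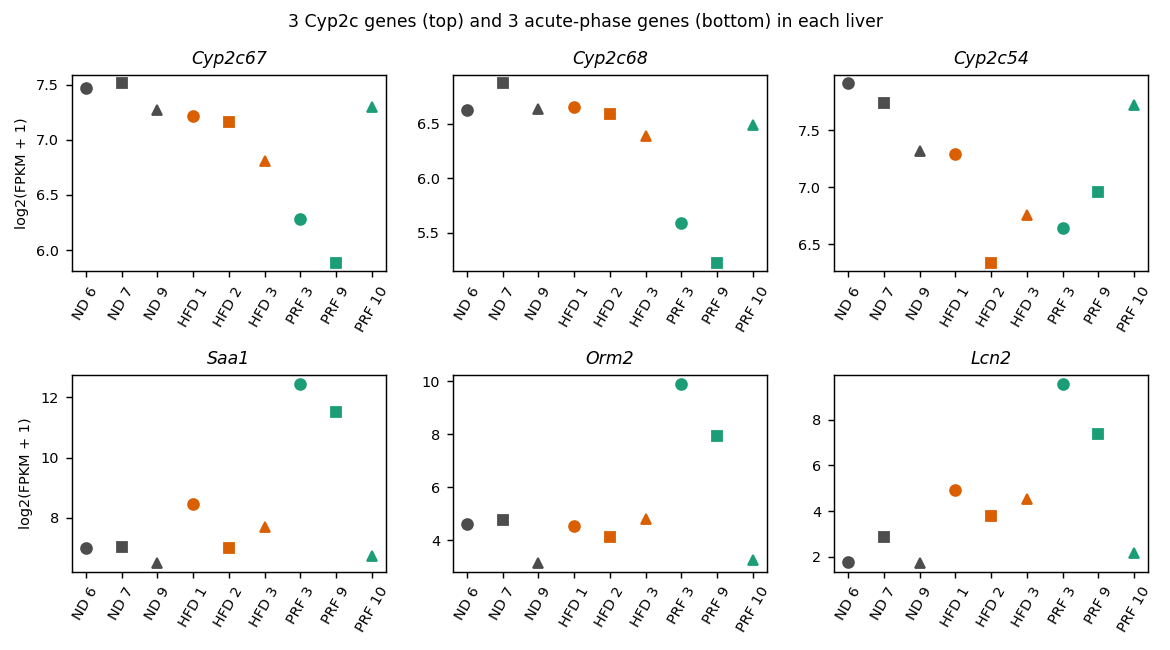
Each panel plots log2(FPKM + 1) of 1 gene against the 9 livers, with its own vertical range; the genes were chosen after their values were seen. Saa1, Orm2, and Lcn2 are highest in PRF 50 mice 3 and 9, where Cyp2c67 and Cyp2c68 are lowest, while Cyp2c54 in these mice lies within the HFD range.

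Macrophage markers were higher with PRF. Of 12 Kupffer cell and macrophage markers, all tested, 10 were higher in PRF 50 against HFD, with a median log2 fold change of 1.43, against -0.02 over all tested genes. That count was 7 without HFD mouse 1, 1 without HFD mouse 2, 0 without HFD mouse 3, 1 without PRF 50 mouse 3, 10 without PRF 50 mouse 9, and 5 without PRF 50 mouse 10, and the median lay between 1.22 and 1.56 in these fits. The count was 2 with no minimum level and 0 without PRF 50 mice 3 and 9 together. The list, led by Cd5l and with no marker at 0 in all livers, summed to 108, 203, and 266 FPKM in ND mice 6, 7, and 9, 138, 222, and 221 FPKM in HFD mice 1, 2, and 3, and 751, 425, and 488 FPKM in PRF 50 mice 3, 9, and 10. In bulk liver, fewer hepatocytes and less RNA per hepatocyte cannot be told apart. Limma called 0 of the 12 in HFD against ND (0 at an unadjusted p under 0.05, median 0.03) and 0 in PRF 50 against ND (12 at an unadjusted p under 0.05, median 1.40), where it called 2 without ND mouse 9 and 1 without PRF 50 mouse 9. The part of these markers in the Cyp2c values was not tested.

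Of 12 hepatocyte markers, 11 were tested, and limma called 0 of these in HFD against ND (2 at an unadjusted p under 0.05, median -0.08), in PRF 50 against HFD (3, median 0.35), and in PRF 50 against ND (0, median 0.12), and 1 was lower in HFD against ND without HFD mouse 1. In PRF 50 against HFD 2 were lower with a minimum of 10 FPKM, 2 without the variance trend of limma, and 1 with quantile normalization. Many P450 genes are known as stronger around the central vein. Of 16 pericentral markers limma called 0 in HFD against ND (3 at an unadjusted p under 0.05, median 0.17) and 1, Nr1i3, lower in PRF 50 against HFD (median -0.07). Of 16 periportal markers it called 0 in HFD against ND (9 at an unadjusted p under 0.05, median -0.18), where 1 was lower without HFD mouse 1, and G6pc lower in PRF 50 against HFD (median 0.15). The adjusted p of G6pc was 0.0687 without HFD mouse 1, 0.0783 without HFD mouse 2, 0.103 without HFD mouse 3, 0.0520 without PRF 50 mouse 3, and 0.0625 without PRF 50 mouse 10.

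Markers of other cells were tested in the same fits. In HFD against ND limma called 0 of 10 stellate and fibroblast markers (4 at an unadjusted p under 0.05, median 0.31), 0 of 9 endothelial (3, median -0.68), 0 of 1 cholangiocyte (0, value 0.16), 0 of 3 lymphocyte and granulocyte (0, median 0.09), and 0 of 4 red blood cell markers (0, median -0.27). The same lists had 0 calls in PRF 50 against HFD, with 2, 0, 0, 2, and 0 genes at an unadjusted p under 0.05 and medians of 0.02, 0.46, 0.29, 1.49, and 0.27. Leaving out 1 mouse gave 1 higher stellate and fibroblast marker in HFD against ND (without ND mouse 9 or HFD mouse 1) and 1 lower lymphocyte and granulocyte marker (without ND mouse 6). It gave 1 higher lymphocyte and granulocyte marker in PRF 50 against HFD (without PRF 50 mouse 10).

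The receptors CAR and PXR fell with PRF. Of 29 tested receptors and factors of P450 control, limma called 0 in HFD against ND (13 at an unadjusted p under 0.05), and Nr1i3 and Nr1i2 were among those it called lower in PRF 50 against HFD. Nr1i3 was 5.65, 5.28, and 5.05 in ND, 6.23, 5.71, and 6.22 in HFD, and 5.06, 5.32, and 4.97 in PRF 50 livers, in order of animal number. All HFD livers were above all others. Nr1i3 fell by 0.93 in PRF 50 against HFD (SE 0.17, limma adjusted p = 0.0336) and Nr1i2 fell by 0.67 (SE 0.12, limma adjusted p = 0.0369). Leaving out any 1 of the 6 mice took the adjusted p of Nr1i2 to between 0.0572 and 0.124. That of Nr1i3 was 0.0732 without HFD mouse 1, 0.115 without HFD mouse 3, 0.0951 without PRF 50 mouse 3, and 0.0760 without PRF 50 mouse 10. Hnf4a differed by -0.32 in HFD against ND (adjusted p = 0.310) and by 0.09 in PRF 50 against HFD (adjusted p = 0.754).

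Known targets of CAR and PXR divided. Of 29 tested in HFD against ND, 2 (Cyp2b9 and Cyp2b13) rose, against 0.702% of all tested genes. Another 4 (Cyp3a11, Ces2a, Ugt2b35, and Gstm3) fell, against 0.631%, and the median over the 29 was -0.35. The CAR target Cyp2b10 differed by -1.28 (limma adjusted p = 0.0584), which did not pass. Its mean was 2.03 FPKM in ND, 0.196 FPKM in HFD, and 0.106 FPKM in PRF 50 livers. Cyp2b13 passed the minimum level only through the HFD livers, and Cyp2b10 only through the ND livers. Of 27 tested in PRF 50 against HFD, 7 fell (Cyp2b9, Cyp2b13, Cyp3a25, Cyp3a59, Abcc3, Abcb1a, and Aldh1a1), against 2.16% of all tested genes. In that comparison 0 rose, against 1.43%, and the median was -0.58. Of 26 tested in PRF 50 against ND, 7 fell (Cyp3a11, Cyp3a25, Cyp3a59, Ces2a, Gsta2, Abcc3, and Slco1a4), against 0.298%, with a median of -0.87. Cyp3a11, the main Cyp3a enzyme, fell by 2.60 in HFD against ND (limma adjusted p = 0.00120) and fell by 4.20 in PRF 50 against ND (adjusted p = 0.00684). Cyp2b9 rose by 5.52 in HFD against ND (adjusted p = 0.00419) and fell by 5.997 in PRF 50 against HFD (4.6e-04), with all HFD livers above all others, as for Cyp2c38 and Cyp2c39.

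Leaving out 1 mouse moved these counts of CAR and PXR targets. In HFD against ND 1 was higher without ND mouse 6, ND mouse 7, or HFD mouse 2, and the number lower was 1 without ND mouse 6, ND mouse 7, or HFD mouse 3 and 2 without HFD mouse 1 or HFD mouse 2. In PRF 50 against HFD 3 were lower without HFD mouse 2 or HFD mouse 3, 2 without PRF 50 mouse 3, and 4 without PRF 50 mouse 9 or PRF 50 mouse 10. In PRF 50 against ND 3 were lower without ND mouse 6 or PRF 50 mouse 9, 1 without ND mouse 7, and 2 without PRF 50 mouse 3. The adjusted p of Cyp3a11 in PRF 50 against ND was 0.0683 without ND mouse 7.

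Enzymes that work beside Cyp2c were described in the same fits. Of 18 tested partners of fatty-acid monooxygenation, 1 (Cyp4a14) rose and 1 (Cyp4a12b) fell in HFD against ND. Between these diets limma called 0 higher with all 9 mice in 1 fit and 0 lower with no minimum level. Cyp4a12b alone fell in PRF 50 against ND, where 0 were called without ND mouse 7 or PRF 50 mouse 3 and 2 without PRF 50 mouse 9. The adjusted p of Cyp4a12b in that comparison was 0.0747 without ND mouse 7, 0.0579 without ND mouse 9, 0.137 without PRF 50 mouse 3, and 0.108 without PRF 50 mouse 9. With PRF on the high-fat diet 5 fell (Cyp2j5, Ephx1, Cyp4a10, Cyp4a14, and Pla2g6) and 1 rose (Ptgs1). The number that fell was 3 without HFD mouse 1, 1 without HFD mouse 2 or PRF 50 mouse 3, 0 without HFD mouse 3, and 2 without PRF 50 mouse 10, and Ptgs1 was not called without any 1 of the 6 mice (adjusted p between 0.0637 and 0.131). Ephx1 fell by 0.79 (SE 0.16, limma adjusted p = 0.0420), with an adjusted p between 0.0549 and 0.140 when any 1 of the 6 mice was left out. The log2 fold change of Ephx2 was -0.38 (limma adjusted p = 0.116). Of 14 electron donors and haem synthesis genes, limma called 0 in HFD against ND (1 at an unadjusted p under 0.05) and Pgrmc2 lower in PRF 50 against HFD, with an adjusted p between 0.0526 and 0.108 when any 1 of the 6 mice was left out. Por differed by -0.07 (adjusted p = 0.904).

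Cyp2c70 works in bile acid synthesis, and of 15 genes of that pathway Cyp7b1 and Fgfr4 fell in HFD against ND. Fgfr4 had an adjusted p between 0.0555 and 0.137 when any 1 of the 6 mice was left out. With PRF on the high-fat diet Cyp7b1 rose by 1.27 (limma adjusted p = 0.0414) and Akr1d1 fell by 0.56 (limma adjusted p = 0.0411). The adjusted p of Cyp7b1 was 0.0970 without HFD mouse 1, 0.102 without HFD mouse 2, 0.132 without HFD mouse 3, 0.115 without PRF 50 mouse 3, and 0.0661 without PRF 50 mouse 10, and that of Akr1d1 was between 0.0647 and 0.138 when any 1 of the 6 mice was left out. Cyp7a1, the rate-limiting enzyme, differed by 1.001 in PRF 50 against HFD (limma adjusted p = 0.327), and Cyp8b1 by -1.15 (limma adjusted p = 0.360), with 4.59 in PRF 50 mouse 3 and 7.47 in mouse 9. Limma called 0 of the 15 in PRF 50 against ND, and 0 had an unadjusted p under 0.05.

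The genes most like Cyp2c55, the member with the largest fold change in HFD against ND, were found by Pearson's r of log2 values over the 9 livers, among 9977 other tested genes. They were Cyp2b10, a CAR target (r = 0.963), Rbm47, an RNA-binding protein (0.960), Gsr, glutathione reductase (0.957), Ethe1, a mitochondrial sulfur dioxygenase (0.956), and Cyp26a1, a retinoic acid hydroxylase (0.953). Cyp2c29 ranked 27 (r = 0.913). For Cyp2c38, the member with the largest fold change in PRF 50 against HFD with a pseudocount of 1, they were Acot4, a peroxisomal acyl-CoA thioesterase (0.977), Chkb, a choline kinase (0.973), Plin2, a lipid droplet coat protein (0.971), Pex11a, a peroxisome division protein (0.969), and Rassf3 (0.969), among 10083 genes. With a pseudocount of 0.1 Cyp2c39 was at -2.39 and Cyp2c38 at -2.26. In likeness to Cyp2c38, Cyp2c39 ranked 18 (r = 0.953), while Cyp2c29 was at r = -0.18 and Cyp2c70 at r = -0.88. These coefficients describe 9 livers in 3 groups, which share the group differences, and carry no test.

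The genes before the array, next to Cyp2c55, were Slc35g1, Plce1, Noc3l, Tbc1d12, and Hells. Hells was below the minimum level in each comparison, and limma called none of the other 4 in any comparison, with adjusted p between 0.103 and 0.969. Genes on the other side are not described here.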

How the data were processed

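Per the labels and the study's methods, the authors isolated liver RNA with TRIzol, built directional libraries from poly(A) RNA, mapped trimmed read pairs with TopHat to mm10, and estimated FPKM with Cufflinks, with a geometric normalization in edgeR by the authors. The gene annotation they used is not given in the sources used here. The deposited values were read as log2(FPKM + 1), because none is negative and many are exactly 0. Each of 9 tables held 23183 gene symbols.

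For each comparison, the 6 mice of the 2 groups were fitted with limma 3.58.1 in R 4.3.3 (lmFit, eBayes with a trend, Benjamini-Hochberg adjustment over all tested genes), for genes that averaged 1 FPKM or more across those mice. The script was tested on simulated data. Libraries are separate mice, so p-values measure the spread between mice. The named genes were all members, the other Cyp2c symbols, called members and central genes of the lists, the 5 genes most like 2 members, and the 5 coding genes on each side of the array; the members and lists were chosen with earlier results of these data known. Transcripts and positions came from GENCODE vM21, promoters from RefSeq; alignments were made with Biopython 1.88 in Python 3.11.15 with pandas 2.3.3. Alternatives changed the mice in the fit, the pseudocount (0.1), the minimum (none, 10 FPKM), the scaling, and the trend term, and left out each mouse.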

Additional observations from a re-analysis of the deposited data

How the results depend on the processing

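With every gene above 0 tested, limma called 1 member in HFD against ND (37 genes in all), 1 in PRF 50 against HFD (126 genes), and 0 in PRF 50 against ND (11 genes), where 5 members had an unadjusted p under 0.05; more genes were then adjusted for. A minimum of 10 FPKM left Cyp2c55 untested and gave 1 member in HFD against ND. Without the trend term 2 members were called in PRF 50 against ND, and with all 9 mice in 1 fit 107 genes were. Leaving out 1 mouse gave 1 to 4 members and 35 to 140 genes in HFD against ND, 0 to 3 members and 15 to 242 genes in PRF 50 against HFD, and 0 to 2 members and 4 to 71 genes in PRF 50 against ND. Over these fits the log2 fold change changed sign for some members that were not called: in PRF 50 against HFD it ran from -0.19 to 0.26 for Cyp2c29, from -0.39 to 0.0090 for Cyp2c37, and from -0.25 to 0.022 for Cyp2c50, and in PRF 50 against ND from -0.098 to 0.15 for Cyp2c70. With PRF 50 mice 3 and 9 left out together, chosen after seeing the data and with lone mouse 10 assumed to vary like the other group, limma called 0 members and 31 genes in PRF 50 against HFD and 0 members and 10 genes in PRF 50 against ND, with 4 and 3 members at an unadjusted p under 0.05; fewer mice were then compared. The log2 fold change turned to -0.036 for Cyp2c29, 0.24 for Cyp2c37, 0.42 for Cyp2c40, and 0.20 for Cyp2c50 against HFD, and to 0.062 for Cyp2c54 against ND; the cause was not tested. No paired analysis was possible because the groups hold different mice and the animal numbers do not pair them. Members with low FPKM are the least certain, since counts were not used here.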
